A study of Mus musculus with 33 samples.

Results

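Interferon-stimulated genes (ISGs) were followed in bulk RNA-seq libraries of 2 mouse brain regions, the posterior hypothalamus (PH) and the preoptic area (POA), before and after ovariectomy (OVX). The 54 genes were listed by name as widely used members of the type I and type II IFN programs. The list was made with earlier results of these data known, so its counts are descriptive. All 54 are among the 41565 named entries of the deposited table. All 54 passed the filter on low values in both regions, where 21956 PH genes and 21323 POA genes were tested. A value is called signal here because the deposited numbers are normalised levels and not read counts. The threshold of that filter was a signal of 44.3, and 48 of the 54 genes lay at or above it in every library. *Oas1a*, *Oas2*, *Oas3*, *Oasl1*, *Zbp1* and *Mx1* lay below it in 1, 6, 8, 16, 15 and 11 of the 33 libraries, respectively.

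All libraries came from WT C57BL/6 females, and the 3 groups differed in ovarian status and in time. The labels place every group in batches 1 and 2, with replicates 1 to 3 of the OVX groups in batch 1. The methods place bilateral OVX at 3 to 4 months of age, with tissue taken 14 days or 4 months later, and intact females were killed in diestrus. The PH was measured in 4 intact, 6 14-day and 6 4-month libraries, and the POA in 5, 6 and 6. Titles name the controls sham while the genotype labels name them intact, and they are called intact here. No intact group of the age of the 4-month OVX mice is described, so age and time after OVX cannot be told apart. PH and POA were dissected from the same females, but the labels do not say which PH library shares a mouse with which POA library.

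IFNs are cytokines that bind receptors on neighbouring cells and activate JAK kinases and STAT transcription factors. The type I receptor acts through the IFN-stimulated response element in ISG promoters. IFN-γ acts largely through the GAS element and induces *Irf1*, the guanylate-binding proteins (GBPs) and the immunity-related GTPases (IRGs) strongly. In brain, microglia and endothelial cells are known to respond readily to both kinds of IFN, and neurons and astrocytes respond as well.

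All 12 neuronal and 16 hypothalamic marker genes are in the table, and the 12 neuronal ones reached the threshold in every library. The sum of deposited signals per library, in units of 1000000, ran from 44.5 to 72.9 (median 50.2). Sequencing depth cannot be read from such values, so no counting error is given and the spread between libraries is the only error. Nothing in the labels says more than that the libraries are separate samples of a group. Within a library, fewer cells of a type and less RNA per cell cannot be told apart in bulk tissue.

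In 4 of the 33 libraries the GBPs and IRGs stood far above the rest of their group. These were 14-day replicate 6 and 4-month replicate 5 in the PH, and the libraries with the same labels in the POA. The 7 GBPs (*Gbp2*, *Gbp3*, *Gbp4*, *Gbp5*, *Gbp6*, *Gbp7* and *Gbp9*) and the 7 IRGs (*Iigp1*, *Igtp*, *Irgm1*, *Irgm2*, *Ifi47*, *Tgtp1* and *Tgtp2*) are GTPases that attack the vacuoles in which intracellular parasites and bacteria live. Each was compared with the median of the other libraries of its group, on the log2 scale. The 14 genes had a median excess of 1.70 (range 0.33 to 3.65) in PH 14-day replicate 6 and of 2.56 (1.25 to 3.29) in PH 4-month replicate 5. In the POA the excess was 1.63 (0.81 to 2.94) in 14-day replicate 6 and 2.5 (1.02 to 3.92) in 4-month replicate 5. More than 2-fold above the group median were 0.82% and 0.547% of all tested genes in these PH libraries and 0.783% in POA 4-month replicate 5, but 2.5% in POA 14-day replicate 6, which also had the lowest summed signal of the 33. The other 40 ISGs were displaced less in these libraries, by a PH median of 0.44 and 0.29 and a POA median of 0.58 and 0.28.

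**Figure D1:**
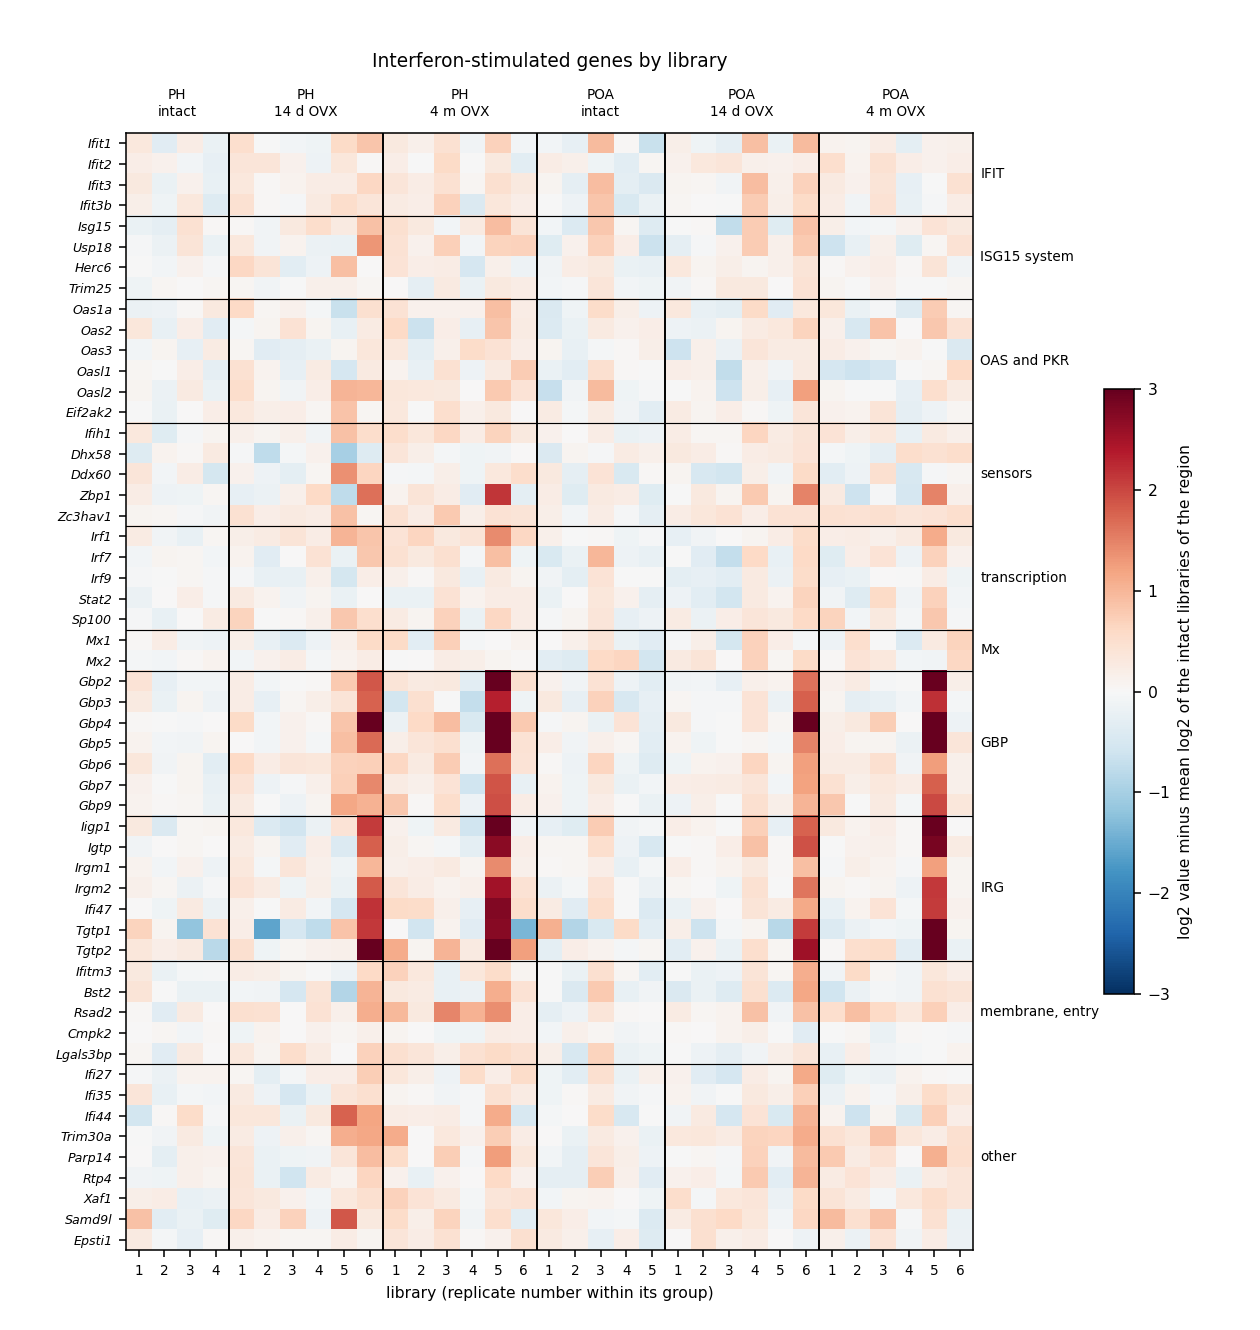
Heat map of the 54 genes (rows, by role) in 33 libraries (columns, by region and group), coloured by log2 signal minus the mean of the intact libraries of the region and limited at 3 in either direction. The GBP and IRG rows are dark in 14-day replicate 6 and 4-month replicate 5 of both regions, and paler in most other columns.

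*Gbp2* gives the picture in single libraries; this gene and the other GBPs and IRGs named one by one were chosen after their values were seen. In the PH its signal was 321, 204, 229 and 229 in the intact libraries. After OVX it ran from 229 through a median of 266 to 877 at 14 days and from 196 through 307 to 2193 at 4 months. The second highest libraries of those groups had 414 and 339.6, above the highest intact value but far below the highest library. In the POA the intact values were 259.7, 218, 321, 214 and 191, the 14-day values ran from 199 through 238 to 732, and the 4-month values from 233 through 263 to 1863. There the second highest libraries had 261 and 279 and lay within the intact range.

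*Gbp4* had the largest ratio of highest to lowest library of the 7 GBPs. Its PH signal was 147, 142, 141 and 144 in the intact libraries, reached 1187 in 14-day replicate 6 and reached 1958 in 4-month replicate 5. The group medians were 184 and 232. In the POA, intact values of 116, 128, 104, 160.1 and 99.4 stood against 952 and 2050.3 in the same-numbered libraries, with group medians of 135 and 141. *Gbp5*, a GBP that promotes inflammasome assembly, had 1685 in PH 4-month replicate 5 and at most 254 in the other 4-month PH libraries.

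The IRGs were high in the same libraries. *Igtp* (Irgm3) had a PH signal of 255, 276, 282 and 277 in intact libraries, 942 in 14-day replicate 6 and 1773 in 4-month replicate 5, with group medians of 298 and 294. Its POA signal was 239.7, 240.0, 326, 207 and 166 in intact libraries, against 869.6 and 1653 in those OVX libraries and medians of 251 and 253. *Tgtp2* reached 1500.3 and 1774 in the PH, where its intact values were 137, 124, 131 and 61.8. *Irgm2*, a regulator of the effector IRGs, had 1719 in PH 4-month replicate 5 and at most 403 in the rest of that group. *Tgtp1* and *Tgtp2* are near-identical copies, as are parts of the *Gbp6* family and *Ifit3* with *Ifit3b*, so how the authors' counting divided reads between the copies is uncertain. *Iigp1*, the IRG outside chromosome 11, lies on chromosome 18 and had a signal of 1518 in PH 4-month replicate 5 and of at most 201 in the rest of the group.

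Of the 14 GBPs and IRGs, 13 had their highest 14-day PH value in replicate 6, the exception being *Gbp9* with 490.0 there and 532 in replicate 5. All 14 had their highest value of the group in the other 3 libraries. Over all tested genes, between 14.5% and 27.1% were highest in the libraries concerned. After centring on group means, the median pairwise correlation of log2 signal among these 14 genes was 0.90 over the 33 libraries and 0.37 over the 29 libraries that remain without those 4. The same median for the other 40 ISGs was 0.34 and 0.25. These correlations are descriptive, since the genes share libraries and the 4 libraries were singled out by the same values.

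**Figure D2:**
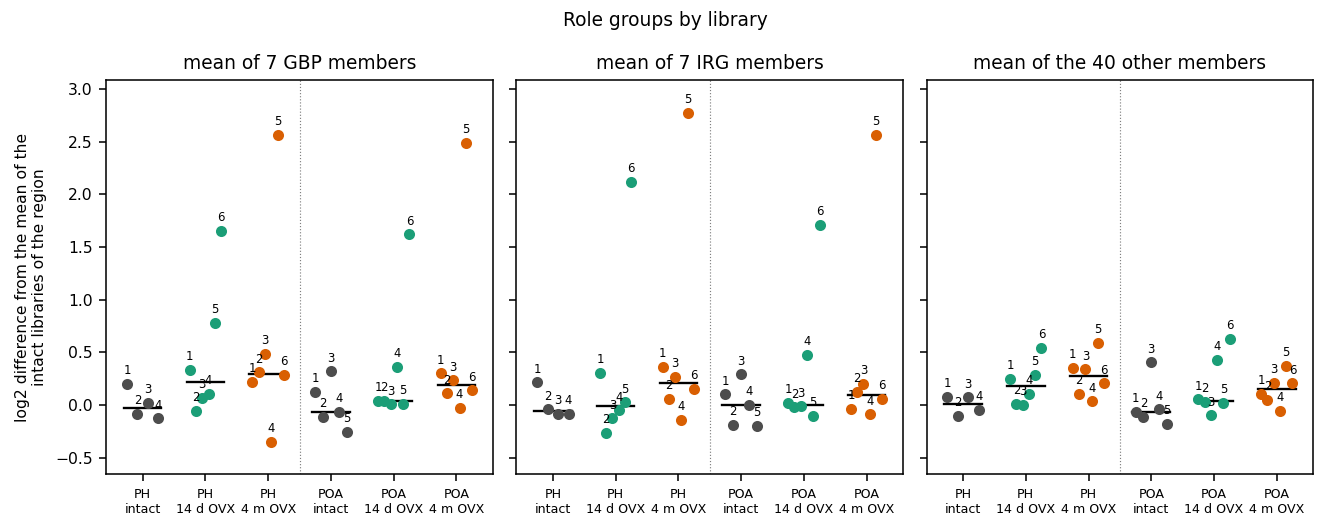
Mean log2 signal of the 7 GBPs, the 7 IRGs and the other 40 genes in each library, minus the mean of the intact libraries of the region, with points for libraries and a line for the group median. In the PH the GBP point of 4-month replicate 5 lies at 2.56 and the IRG point at 2.77, while no group median of either family exceeds 0.30.

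The choice of genes did not use their promoters. Sequences of 250 bases before each start were taken from RefSeq (GRCm38.p6), which held 41 of the 54 genes and 26987 genes in all. The letters GAAA, any 2 bases and again GAAA, a core of the IFN-stimulated response element, were searched on both strands and stood in 9 of the 10 GBPs and IRGs with an entry, in 11 of the other 31 ISGs and in 3.45% of all genes. The letters TTCNNNGAA, the GAS core, stood in 6 of those 10, in 5 of the other 31 and in 8.13% of all genes. Both stood in 19.5% of the ISGs with an entry and in 0.397% of all genes. A match is only a match of letters and says nothing on binding.

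Both motifs stood in 4 of the 6 IRGs with an entry, while *Irgm1* held the response element core alone and *Ifi47* held neither. These 4 are shown because both motifs stand side by side in them, in capitals, with 11 bases from the first letter of the GAS core to the first letter of the response element core.
Igtp: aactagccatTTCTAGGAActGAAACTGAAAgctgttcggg
Irgm2: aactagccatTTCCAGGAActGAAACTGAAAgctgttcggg
Tgtp1: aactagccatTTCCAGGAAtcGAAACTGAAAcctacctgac
Tgtp2: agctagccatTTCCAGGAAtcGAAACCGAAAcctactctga
They lie on chromosome 11 of GRCm38.p6, at chr11:58199501-58199541 (plus strand) for *Igtp*, chr11:58214892-58214932 (plus) for *Irgm2*, chr11:48992304-48992344 (minus) for *Tgtp1* and chr11:49064263-49064303 (minus) for *Tgtp2*. All 4 windows lie upstream of the annotated start of the gene. In GRCm39 the 6 IRGs of chromosome 11 lie between 48752795 and 58113615. The GBPs fall into a group of 4 on chromosome 3 (142199739 to 142343779) and a group of 3 on chromosome 5 (105224332 to 105443751).

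Of 53 further ISGs in the table, 8 and 6 were more than 2-fold above the median of the other libraries of the group in PH 14-day replicate 6 and 4-month replicate 5. In the corresponding POA libraries 8 and 8 were. Of all tested genes, 0.82% and 0.547% were in these PH libraries, and 2.5% and 0.783% in these POA libraries. Their median displacement was 0.32, 0.24, 0.46 and 0.30 on the log2 scale, and 6, 14, 1 and 10 of them lay below that median. The genes named next were chosen after their values were seen. On the same scale, *Gbp10* was higher by 2.26 and 2.25 in PH 14-day replicate 6 and 4-month replicate 5, and by 2.32 and 2.29 in the POA. For *Gvin1*, a very large IFN-inducible GTPase, the values were 2.04, 2.23, 2.32 and 2.99 in that order. *Nlrc5*, the transactivator of MHC class I genes, had 1.83, 1.05, 1.74 and 1.49, and the immunoproteasome subunit *Psmb8* had 1.43, 1.19, 1.05 and 0.88. *Ifng* itself had a signal of 27.7, 27.3, 37.7 and 26.4 in these libraries and reached the filter threshold in none of the 33.

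Markers of other cells were summed in these 4 libraries, and their part in the GBP and IRG values was not tested. The summed signal of 16 lymphocyte genes was 788 and 833 in the PH libraries, where their groups spanned 725 to 934 and 767 to 957. It was 838 in POA 14-day replicate 6 (group range 716 to 890) and 901 in POA 4-month replicate 5, the highest of a group that began at 725. The defining natural killer and cytotoxic genes *Ncr1*, *Nkg7* and *Gzma* reached the threshold in no library. Only 2 of the 16 lymphocyte genes, and 3 of 13 monocyte and neutrophil genes, reached it in every library. Genes below it add signal near the floor to both sums. The summed signal of 18 microglial genes was 24743, 25980, 23978 and 24901, the first being the highest of its group. In the same order, 15 endothelial genes summed to 20093, 19350, 19072 and 19442, both 14-day values being the highest of their groups. Neuronal genes summed to 300982, 304835, 259604 and 305401, each the lowest of its group except in PH 4-month replicate 5. Hypothalamic genes summed to 11431, 22209, 21972 and 13829, each the highest of its group except in PH 14-day replicate 6. Monocyte and neutrophil genes summed to 793, 797, 963 and 755 within an overall span of 643 to 1022. The value of 963 was the highest of its group.

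The labels do not tell whether the PH and POA libraries of the same group and number are from the same mouse. Across the 16 such pairs, the GBP and IRG mean lay far above intact in both regions in the pair of 14-day libraries numbered 6 and in the pair of 4-month libraries numbered 5. Those 2 pairs had 1.88 and 1.66, and 2.67 and 2.52, in the PH and POA respectively. In the remaining OVX libraries the mean ran from -0.24 to 0.42.

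**Figure D3:**
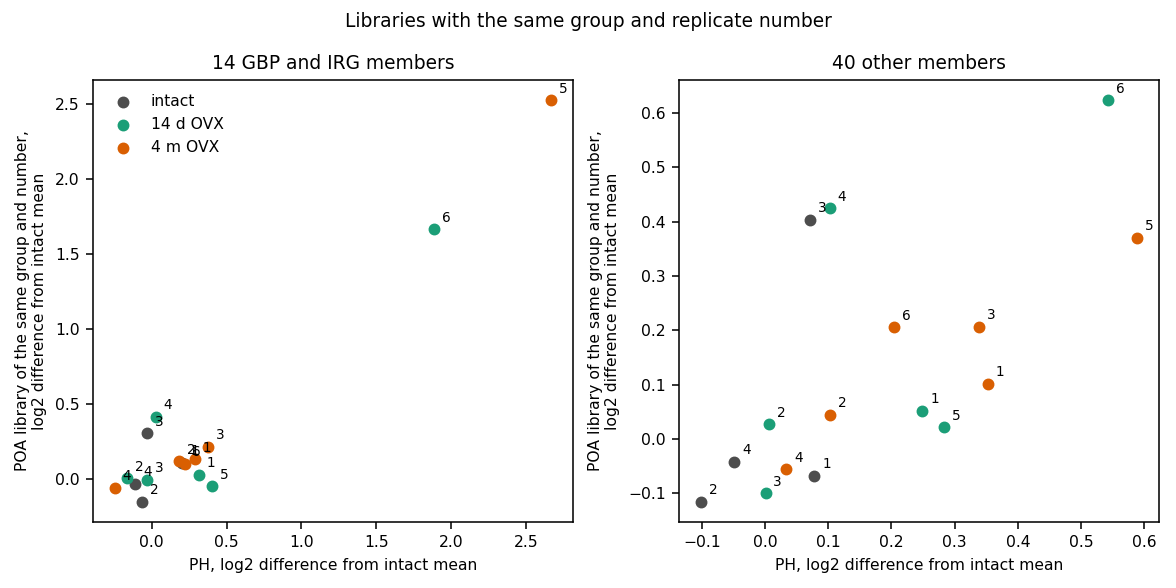
Mean log2 signal minus the intact mean in the PH (x axis) against the POA library of the same group and number (y axis), for the 14 GBPs and IRGs and for the other 40 genes, with 1 point per pair and 16 pairs. Only the pairs of 14-day replicate 6 and 4-month replicate 5 lie above 1.6 on both axes for the GBPs and IRGs.

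Another library was high by a similar amount in the GBPs and IRGs and in the other ISGs. POA intact replicate 3 had the highest value of its group for 42 of the 54 genes, against 19.8% of all tested genes. Its median log2 excess over the other intact libraries was 0.47 for the 14 GBPs and IRGs and 0.46 for the other 40. It was more than 2-fold above their median for 7 genes (0.366% of all tested genes) and for no GBP or IRG. The 7 were *Ifit1*, *Ifit3*, *Ifit3b*, *Isg15*, *Oasl2*, *Irf7* and *Rtp4*. *Ifit1*, which binds viral RNA lacking cap methylation, had a signal of 486 there and 159 to 258 in the other 4 libraries. *Irf7*, the transcription factor that amplifies type I IFN production, had 244 there and 89.9 to 111 elsewhere in the group. *Isg15*, a ubiquitin-like modifier, had 154 and 67.2 to 92.5. This library is a control in both POA comparisons with intact. POA 14-day replicate 4 was also high, with 468 for *Ifit1*, 151 for *Isg15* and 184 for *Irf7*. Its median log2 excess over its group was 0.34 for the GBPs and IRGs and 0.31 for the other 40. Only 1 member was more than 2-fold above its group there (0.427% of all tested genes).

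The comparisons with intact mice ask which ISGs changed after short and long estrogen withdrawal. Each used limma on log2 signal within the region with 1 surrogate variable, SV1, as covariate, with Benjamini-Hochberg adjustment over all genes tested in that region. A gene is said to be called where the adjusted *P* was under 0.05. The 14-day and 4-month comparisons of a region share its intact libraries and are no independent evidence of each other.

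In the PH 4 months after OVX, all 54 ISGs had a log2 fold change above 0, where 47.1% of all tested genes did. Their median was 0.30 and that of all genes -0.01. With unadjusted *P* under 0.05, 11 were higher (2.95% of all genes) and 0 were lower (3.11%). By limma, 0 of the 54 were called (0.0319% of all genes were), and the smallest adjusted *P* of a member was 0.139. For 2 genes, *Zc3hav1* and *Irf1*, every 4-month library lay above every intact library (0.551% of all genes), and for none did every one lie below (0.392%). Without 14-day replicate 6 and 4-month replicate 5, a setting chosen after seeing the data, 50 of 54 were above 0 (46.6%), 10 had unadjusted *P* under 0.05 and were higher (2.8%), and the median was 0.21.

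At 4 months in the POA, 50 of the 54 had a log2 fold change above 0 (46.5% of all genes) and the median was 0.24. With unadjusted *P* under 0.05, 11 were higher (4.09%) and 0 lower (4.41%), and *Zc3hav1* alone was called by limma (0.0938%). Again *Zc3hav1* and *Irf1* were the 2 genes whose groups did not overlap (0.413%). Without the 2 libraries that stand apart, 43 were above 0 (47.5%), 7 had unadjusted *P* under 0.05 and were higher and the median was 0.13. The share of all genes with such a *P* was 5% there.

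At 14 days the members were higher by a median of 0.21 in the PH, with 49 above 0 (49.4%), and of 0.27 in the POA, with 52 above 0 (47.8%). With unadjusted *P* under 0.05, 2 PH members (1.56%) and 7 POA members (2.83%) were higher, and 0 were lower in either (1.48% and 3.31%). The PH value of SV1 was 0.785 in 14-day replicate 5 and at most 0.195 in every other library. In that replicate 5.31% of all tested genes were more than 2-fold above the median of the others of its group. Its summed signal of 72.9 was the highest of all libraries. The highest 14-day PH values of *Zc3hav1* (1061), *Ifih1* (553) and *Irf1* (497) belong to it, as does the *Gbp2* value of 414. Leaving out single libraries, the POA count ran from 3 (without 14-day replicate 6) to 14 (without intact replicate 3). The PH count ran from 1 (without 14-day replicate 4) to 7 (without 14-day replicate 2). Shares of all genes are not given for these settings. By limma, none was called in either region, where 0% and 0.00469% of all genes were. In neither region did any member separate the groups (0.278% and 0.263%). Without 14-day replicate 6 and 4-month replicate 5 the medians were 0.06 and 0.13, with 42 and 43 members above 0 (49.6% and 51.1%) and 2 and 3 members higher with unadjusted *P* under 0.05 (1.54% and 3.19%). In that setting 1 PH member, *Tgtp1*, was lower with unadjusted *P* under 0.05 (1.34%), at -0.81 on the log2 scale, and 0 POA members were (3.35%).

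Between 4 months and 14 days, 44 of 54 were higher at 4 months in the PH (47.2%), with a median log2 difference of 0.07, and 26 in the POA (48.9%), with a median of -0.00118. None was called by limma (0.00911% and 0.0281%), and 2 and 1 were higher with unadjusted *P* under 0.05 (2.08% and 2.47%), while 0 were lower in either region (2.01% and 2.64%). No member separated 4 months from 14 days in the POA (0.0657% of all genes higher and 0.0422% lower). Without the 2 libraries that stand apart, 43 PH members were higher at 4 months than at 14 days (46.9%), with a median of 0.16, and 5 of them had an unadjusted *P* under 0.05 (2.22%). The difference between regions was tested as an interaction over all 33 libraries. No member was called for it at 14 days (0.00435%) or at 4 months (0.00871%), and 1 and 0 members had an unadjusted *P* under 0.05 in either direction (3.07% of all genes at 14 days and 3.68% at 4 months).

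The 4 libraries that stand apart are all of batch 2. Within batch 1 alone the median log2 fold change of the members was 0.25 (PH) and 0.18 (POA) at 4 months, and 0.09 and 0.06 at 14 days. Within batch 2 alone it was 0.35 and 0.23 at 4 months, and 0.39 and 0.37 at 14 days. *Zc3hav1* at 4 months had 0.42 and 0.41 in batch 1 and 0.40 and 0.46 in batch 2, and no member was called by limma within a batch, with 8 PH members (2% of all genes) and 11 POA members (3.3%) higher at an unadjusted *P* under 0.05 in batch 1 and 1 (1.08%) and 5 (2.47%) in batch 2.

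**Figure D4:**
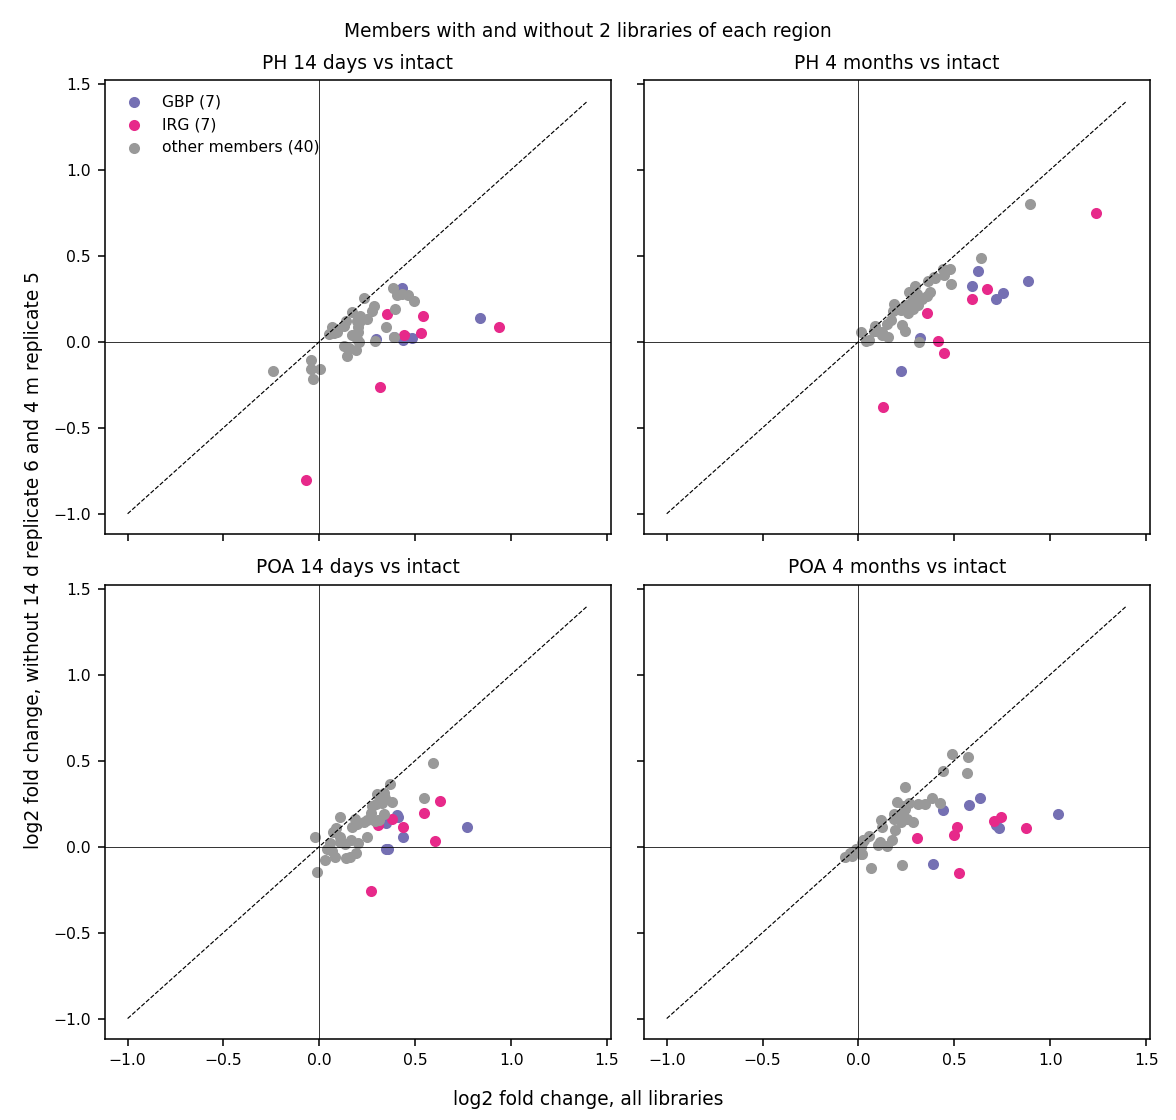
log2 fold change of each of the 54 genes against intact with all libraries (x axis) and without 14-day replicate 6 and 4-month replicate 5 (y axis), in 4 panels for both regions and times, with GBPs and IRGs marked. Most GBP and IRG points lie below the diagonal, with PH 4-month medians of 0.62 and 0.45 that became 0.29 and 0.17.

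The GBPs and IRGs had the highest medians of all roles at 4 months. In the PH the median log2 fold change was 0.62 for the 7 GBPs and 0.45 for the 7 IRGs, and in the POA it was 0.63 and 0.52. Without the 2 libraries of each region these became 0.29 and 0.17, and 0.19 and 0.11. At 14 days the PH medians fell from 0.44 for each family to 0.03 and 0.05, and the POA medians from 0.40 and 0.44 to 0.11 and 0.13. Standard errors of these families were large, as for *Gbp4* in the PH, where the difference of 0.89 had an SE of 0.78. Of the 14, *Gbp6* at 4 months in the PH and *Gbp7* and *Gbp9* at 4 months in the POA had an unadjusted *P* under 0.05.

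Among the sensors of foreign nucleic acid, *Zc3hav1* was the member with the clearest difference. It encodes ZAP, which binds CpG-rich viral RNA and directs its decay, and lies at chr6:38282221-38332504 (GRCm39). Its PH signal was 611, 605, 571 and 540.0 in intact libraries, from 607 through a median of 689 to 1061 at 14 days, and from 657 through 771 to 997 at 4 months. All 6 4-month libraries and 5 of 6 14-day libraries exceeded every intact one. Intact POA libraries had 645, 540.0, 665, 559.5 and 474, those at 14 days ran from 660.3 through 748 to 769, and those at 4 months from 731 through 782 to 814. All 6 4-month libraries again lay above all intact ones, and 4 of 6 did at 14 days.

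The log2 fold change of *Zc3hav1* at 4 months was 0.44 in both regions (SE 0.09 for the PH and 0.08 for the POA). The limma adjusted *P* was 0.139 for the PH and 0.0465 for the POA, so that it rose by the threshold used in the POA and missed it in the PH. At 14 days the values were 0.23 (SE 0.10) in the PH and 0.34 (SE 0.08, adjusted *P* = 0.582) in the POA by limma. The PH value had an unadjusted *P* of 0.0240, but no PH member had a limma adjusted *P* under 0.9998 at 14 days. Without the libraries that stand apart the 4-month difference was 0.42 for the PH and 0.44 for the POA, with a POA adjusted *P* of 0.0523. The POA call was lost when any of 15 of the 17 POA libraries was left out, with a limma adjusted *P* of up to 0.149, and under 10 of 11 other settings. The interaction with region at 4 months was 0.02 (SE 0.14). The 250 bases upstream of *Zc3hav1* in RefSeq held neither motif.

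*Ifih1* encodes MDA5, a cytosolic receptor for long double-stranded RNA, and lies at chr2:62425714-62476607. The PH signal was 374, 235, 292 and 317 in intact libraries, from 277 through 336 to 553 at 14 days, and from 349 through 408 to 478 at 4 months. Values at 4 months and in intact libraries overlapped, with 4 of 6 libraries above every intact one, and the log2 fold change was 0.48 (SE 0.14, limma adjusted *P* = 0.490). Between 4 months and 14 days it was 0.30 (SE 0.13, limma unadjusted *P* = 0.0336). Intact values of the POA were 346, 321, 374, 276 and 287, and the OVX groups had medians of 373 and 369 within overlapping ranges.

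*Dhx58* encodes LGP2, a relative of MDA5 that lacks signalling domains of its own, and had the smallest *P* of the 14-day interaction. Signal in the PH was 76.3, 106, 101 and 119 in intact libraries and ran from 49.9 through 85.8 to 109 at 14 days. Intact values in the POA were 65.2, 93.7, 85.3, 104 and 97.8 and the 14-day values ran from 89.5 through 105 to 117. Group medians thus went opposite ways while the ranges overlapped in both regions. The 14-day fold change was -0.24 (SE 0.18) in the PH and 0.30 (SE 0.13) in the POA on the log2 scale, and the difference between regions of -0.53 (SE 0.22) had an unadjusted *P* of 0.0209 and an adjusted *P* of 1.00 by limma. *Dhx58* lies at chr11:100585710-100595097.

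*Zbp1*, a sensor of Z-form nucleic acid, was also high in the 4 libraries that stand apart. Its signal was 136 in PH 14-day replicate 6 and 192 in PH 4-month replicate 5, where the other libraries of those groups had at most 65.9 and 56.8. In the POA it was 115 and 114 in the corresponding libraries and at most 70.9 and 49.4 in the rest. It was chosen for description after its values were seen.

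Of the transcription factors, *Irf1* separated the 4-month and intact groups in both regions. It encodes IRF1, which is induced by IFN-γ and is a driver of GBP and IRG transcription, and lies at chr11:53660812-53669200. In the PH its signal was 294, 231, 211 and 259 in intact libraries, from 279 through 307 to 497 at 14 days, and from 304 through 352 to 654 at 4 months. The 654 belonged to 4-month replicate 5 and the second highest value was 385. In the POA the intact values were 319, 286, 296, 265 and 283, the 14-day values ran from 244 through 298 to 427, and the 4-month values from 319.9 through 345 to 624.7. Here 624.7 was 4-month replicate 5 and the second highest was 355, so that the lowest 4-month library and the highest intact library almost met.

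At 4 months the log2 fold change of *Irf1* was 0.64 in the PH (SE 0.20, limma adjusted *P* = 0.594) and 0.43 in the POA (SE 0.14, adjusted *P* = 0.350). It was not called in either region. Without the 2 libraries of the region the values were 0.49 and 0.25. Between 4 months and 14 days in the POA it was 0.29 (SE 0.13, limma adjusted *P* = 0.964), and 0.16 without 4-month replicate 5. The other transcription members, *Irf7*, *Irf9*, *Stat2* and *Sp100*, had no unadjusted *P* under 0.05 in any comparison with intact. The role as a whole had medians of 0.30 for the PH and 0.25 for the POA at 4 months.

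The members of the membrane and entry role included *Rsad2*, with the largest 4-month difference of those with an unadjusted *P* under 0.05 in the PH. It encodes viperin, a radical SAM enzyme that makes a chain-terminating nucleotide, and lies at chr12:26492745-26506451. Its PH signal was 133, 103, 157 and 132 in intact libraries, from 129.8 through 176 to 278 at 14 days, and from 148 through 262 to 361 at 4 months. The 4-month median was above every intact value, and 5 of 6 libraries were. Intact POA libraries had 119.9, 129, 184, 148 and 146, the 14-day values ran from 133 through 163 to 266, and the 4-month values from 164 through 210.1 to 268. There 4 of 6 lay above every intact library.

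The log2 fold change of *Rsad2* at 4 months was 0.89 in the PH (SE 0.25, limma adjusted *P* = 0.445) and 0.57 in the POA (SE 0.18, adjusted *P* = 0.331). At 14 days it was 0.46 and 0.38. Leaving out the libraries that stand apart changed the 4-month values to 0.80 and 0.52. *Lgals3bp*, a secreted galectin-binding glycoprotein at chr11:118280716-118292918, had the smallest *P* of the 4-month interaction. The PH signal was 839, 638, 967 and 807 in intact libraries, from 813 through 974 to 1295 at 14 days, and from 911 through 1097 to 1193 at 4 months.

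Its POA values were 1172, 744, 1650.5, 908 and 949.5 in intact libraries, from 869 through 1001 to 1348 at 14 days, and from 892 through 1021 to 1199 at 4 months. No OVX library of the POA lay outside the intact range. The log2 fold change in the PH was 0.38 (SE 0.12) at 14 days and 0.40 (SE 0.11, limma adjusted *P* = 0.455) at 4 months, and in the POA it was 0.04 (SE 0.15) and 0.02 (SE 0.15). The difference between regions at 4 months was 0.37 (SE 0.19, unadjusted *P* = 0.0596 by limma), which does not pass, and it was 0.23 without POA intact replicate 3. No member had a limma adjusted *P* under 0.9999 for that interaction. *Ifitm3*, *Bst2* and *Cmpk2*, the remaining members of this role, had no unadjusted *P* under 0.05 against intact.

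*Trim30a*, a TRIM protein that restrains NF-κB signalling, had the smallest *P* of all members in the POA at 14 days and lies at chr7:104058232-104114407. Its POA signal was 146, 126, 174, 159 and 125 in intact libraries, from 171 through 205 to 315 at 14 days, and from 168 through 191 to 262 at 4 months. At each time 5 of 6 libraries lay above every intact one. The log2 fold change was 0.59 (SE 0.14, limma adjusted *P* = 0.566) at 14 days and 0.49 (SE 0.14, adjusted *P* = 0.298) at 4 months. Without the 2 libraries that stand apart the 4-month value was 0.54 (limma adjusted *P* = 0.101). In the PH the intact values were 151, 140.1, 182 and 139, against 138 through 174 to 337 and 154 through 184 to 328, with fold changes of 0.35 and 0.45 that had no unadjusted *P* under 0.05.

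**Figure D5:**
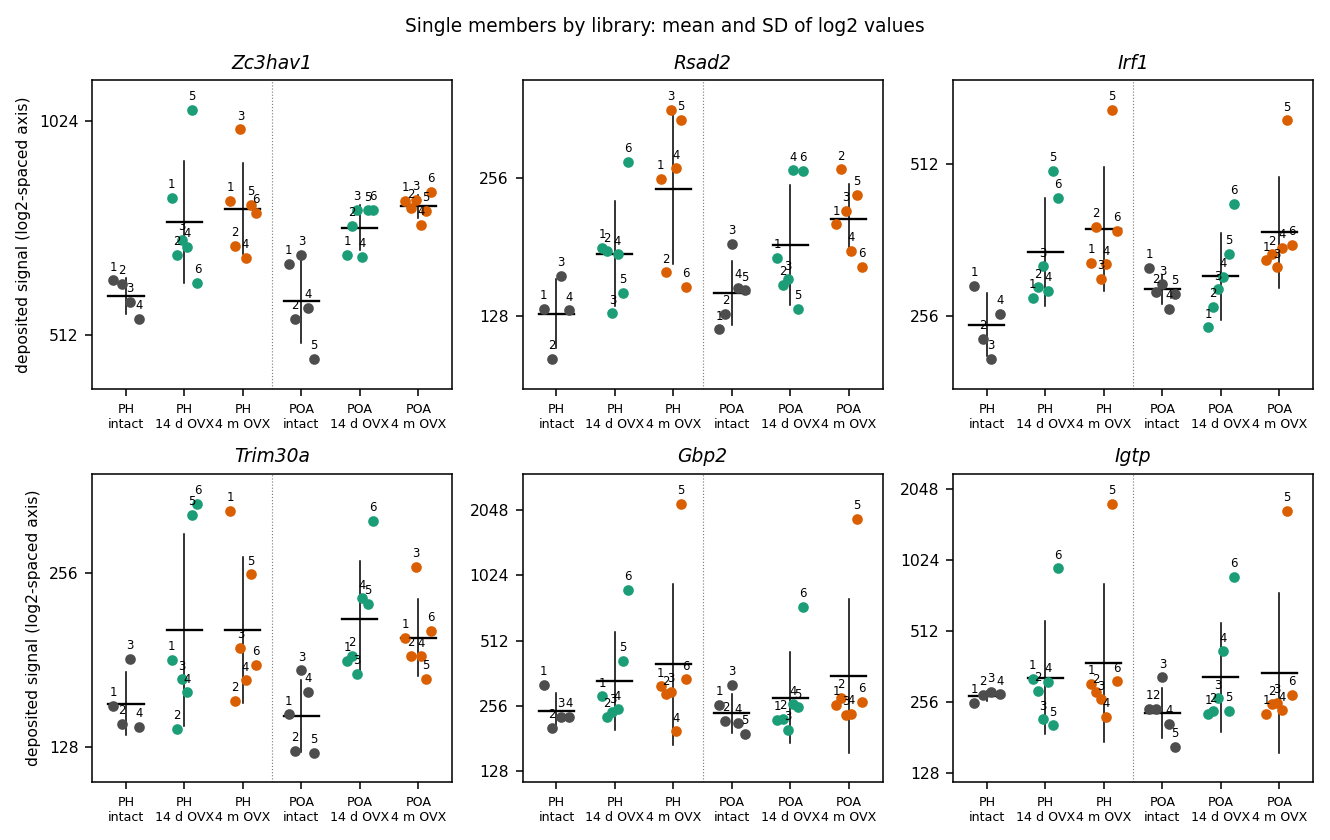
Signal of *Zc3hav1*, *Rsad2*, *Irf1*, *Trim30a*, *Gbp2* and *Igtp* in every library (log-spaced y axis) by region and group, with points for libraries and the mean and SD of log2 signal. *Zc3hav1* and *Irf1* show no overlap between intact and 4-month libraries, while 1 library in each OVX group carries *Gbp2* and *Igtp*.

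The short windows around the matches in *Rsad2*, *Trim30a* and *Irf1* are shown because these members are described library by library. Capitals mark the response element core read on the opposite strand in *Rsad2* and *Trim30a* and the GAS core in *Irf1*.
Rsad2: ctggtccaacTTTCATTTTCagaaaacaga
Trim30a: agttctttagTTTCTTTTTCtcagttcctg
Irf1: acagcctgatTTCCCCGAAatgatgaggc
They lie upstream of the genes in GRCm38.p6, at chr12:26456553-26456582 (minus), chr7:104465210-104465239 (minus) and chr11:53769914-53769942 (plus). The upstream bases of *Ifih1* and *Lgals3bp* held neither motif. Genes without an entry in the table were *Usp18*, *Dhx58*, *Oas2*, *Zbp1*, *Mx1*, *Mx2*, *Gbp4*, *Gbp6*, *Gbp9*, *Iigp1*, *Ifi27*, *Parp14* and *Rtp4*.

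The ISG15 system adds the ubiquitin-like ISG15 to proteins and removes it. *Usp18*, its main protease and a brake on the type I receptor, lies at chr6:121222848-121247877. Signal in the PH was 81.8, 74.8, 110.1 and 73.5 in intact libraries, from 73.1 through 84.5 to 211 at 14 days, and from 79.6 through 123 to 137 at 4 months. The 211 was 14-day replicate 6, and the second highest value was 105. Intact values of the POA were 73.6, 104, 154, 109 and 60.3, the 14-day values ran from 78.8 through 105 to 164, and the 4-month values from 61.7 through 89.9 to 128. These groups overlapped, and the 4-month against 14-day difference was -0.34 on the log2 scale (SE 0.20, unadjusted *P* = 0.105 by limma). None of *Isg15*, *Usp18*, *Herc6* and *Trim25* had an unadjusted *P* under 0.05, and the 4-month medians of the role were 0.23 for the PH and 0.09 for the POA.

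The IFIT proteins, which bind foreign RNA ends, lie together on chromosome 19. All 4 had a fold change above 0 in every comparison with intact, with PH medians of 0.20 and 0.24 and POA medians of 0.29 and 0.16 at 14 days and 4 months. *Ifit2* in the POA was higher by 0.24 at 4 months on the log2 scale (SE 0.08, limma adjusted *P* = 0.383). *Ifit3* in the PH was higher by 0.31 at 4 months (SE 0.13, limma adjusted *P* = 0.737).

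The OAS proteins make the 2-5A messenger that activates RNase L, and *Eif2ak2* encodes PKR, which blocks translation on sensing double-stranded RNA. Their 4-month medians were 0.23 in the PH, with all 6 above 0, and 0.09 in the POA, with 5 of 6. *Eif2ak2* in the PH (0.24, SE 0.10) and *Oas2* in the POA (0.38, SE 0.18) had an unadjusted *P* under 0.05. The Mx GTPases, which trap incoming viral capsids, had PH fold changes of 0.19 (*Mx1*) and 0.09 (*Mx2*) and POA fold changes of 0.18 and 0.24 on the log2 scale. Of the remaining 9 members, all 9 were above 0 at 4 months in both regions, and *Xaf1*, *Samd9l* and *Epsti1* in the PH and *Trim30a*, *Parp14*, *Xaf1* and *Samd9l* in the POA had an unadjusted *P* under 0.05.

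Other genes of the pathway came from lists by role. Of 21 IFN ligand genes, 5 are in the table, and none reached the threshold in any library. At 4 months, 7 of 10 receptor and signalling genes were above 0 in the PH (median 0.09) and 6 of 10 in the POA (0.02). Of all tested genes, 47.1% and 46.5% were above 0, a share that also stands beside the lists that follow. The type I receptor chain *Ifnar1* was higher by 0.27 (SE 0.10) in the PH. The kinase *Jak2* was lower in the POA (-0.12, SE 0.05), both with an unadjusted *P* under 0.05. Among 17 induction genes, 14 and 11 were above 0, with *Tlr3* at 0.28 (SE 0.09) and *Irf5* at 0.43 (SE 0.13) in the POA. Of 10 genes listed as negative regulators, 5 were above 0 in each region, and *Isg20*, an exonuclease of viral RNA that this list holds, had 0.61 (SE 0.16, limma adjusted *P* = 0.396) in the PH and 0.54 (SE 0.13, adjusted *P* = 0.158) in the POA.

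Of 50 further ISGs outside the 54, 44 were above 0 in the PH (median 0.21, 47.1% of all genes) at 4 months. In the POA 43 were (median 0.13, 46.5% of all genes). With unadjusted *P* under 0.05, 8 (2.95% of all genes) and 10 (4.09%) of them were higher, and 1 (3.11%) and 0 (4.41%) were lower. The smallest adjusted *P* was that of *Psmb8*, 0.110 in the POA by limma, with a log2 fold change of 0.66 (SE 0.14). *Psmb9* in the PH had 0.89 (SE 0.24, limma adjusted *P* = 0.406). No gene of any of these lists was called at either time in either region.

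Cell markers that moved with the ISGs at 4 months were measured beside them, and their part in the result was not tested. Of 18 microglial genes, 17 were above 0 in each region at 4 months (47.1% and 46.5% of all genes). At an unadjusted *P* under 0.05, 10 PH genes (2.95%) and 12 POA genes (4.09%) were higher. In each region 1 was lower at such a *P* (3.11% and 4.41%). By limma 1 was called in the POA (0.0938%), where the list ran from -0.37 to 0.47 on the log2 scale. The medians were 0.23 and 0.18, and the summed signal ran from 20866 to 23289 in intact and from 22946 to 27381 in 4-month PH libraries. In the POA the sums ran from 21297 to 23716 and from 23149 to 27635. Of 15 endothelial genes, 12 and 11 were above 0, beside the same 47.1% and 46.5% of all genes, with medians of 0.19 and 0.15. Of the erythroid genes tested, 7 of 8 PH genes (2.95% of all genes) and 6 of 7 POA genes (4.09%) were higher at an unadjusted *P* under 0.05. Their medians were 1.35 and 0.85, and 1, *Alas2*, was called by limma in the PH (0.0319%).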

How the data were processed

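Bulk RNA-seq was measured in 33 libraries of mouse PH and POA. The authors quantified reads with kallisto on mm39, imported them with tximport, and used DESeq2 and smartSVA. The deposited values are a normalised signal per gene made by the authors, not counts. How they were made from the estimates is not named in the sources used here, and values of genes with no signal gather at a floor of 22.1. Rows with no symbol (1259) were not used.

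Genes with a signal of at least 44.3, 2 times the floor, in at least 4 PH or 5 POA libraries were tested. log2 signal was fitted in each region with limma 3.58.1 (R 4.3.3), with trend and robust variance and Benjamini-Hochberg adjustment. Group was the factor and SV1 the covariate. SV1 started from the residuals and was re-estimated in 5 rounds from the signal itself, with genes linked to the groups given less weight. The script was tested on simulated data. Each library has a batch label of 1 or 2 in every group.

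The members and gene lists were chosen with earlier results of these data known. Members named by rule and given library by library are those called in any comparison, the 2 with the smallest *P* in each comparison and the 1 in each interaction. Single GBPs, IRGs and *Zbp1* were added after their values were seen. For the other lists the 2 smallest *P* at 4 months were considered. Alternatives were no or another covariate, a replicate block, each batch alone, another filter or offset, and leaving out libraries. Sequences came from RefSeq (GRCm38.p6) and positions from GENCODE (GRCm39).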

Additional observations from a re-analysis of the deposited data

Results flagged for a closer look

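Of 72 group values tested for a library far from the rest of its group by Dixon's criterion, 14 were flagged. Chance gives about 1 in 20 for a single such value. The 72 are overlapping means of the same genes and members picked by their *P*, all in the same libraries. The 14 are therefore a description and cannot be set against that share. Most belong to the 14-day replicate 6 and 4-month replicate 5 libraries. The mean log2 signal of all 54 genes was 8.81 in PH 4-month replicate 5, with the nearest library at 8.03, and 8.60 in POA 4-month replicate 5, with the nearest at 7.88.

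For the 7 GBPs the mean log2 signal was 10.51 in PH 4-month replicate 5 (nearest 8.43), 9.45 in POA 14-day replicate 6 (nearest 8.19) and 10.32 in POA 4-month replicate 5 (nearest 8.13). For the 7 IRGs it was 9.70 in PH 14-day replicate 6 (nearest 7.89), 10.36 in PH 4-month replicate 5 (nearest 7.94), 9.17 in POA 14-day replicate 6 (nearest 7.93) and 10.02 in POA 4-month replicate 5 (nearest 7.66). PH intact replicate 1 was also flagged for the IRGs, at 7.80 against a nearest value of 7.54.

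The other 40 ISGs had a mean log2 signal of 8.08 in POA intact replicate 3, with the nearest intact library at 7.63. *Irf1* had a signal of 654 in PH 4-month replicate 5 (nearest 385) and of 624.7 in POA 4-month replicate 5 (nearest 355). *Usp18* had 211 in PH 14-day replicate 6 (nearest 105).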

How the results depend on the processing

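The number of members higher with unadjusted *P* under 0.05 depended on the setting. A percentage is the share of all tested genes in the setting, and the shares of the main counts stand in the Results. Counts of other settings without a percentage have no share beside them and are not read as results about the members. For PH 14 days against intact it was 2, and 4 with no covariate, with batch for SV1, with SV1 and batch or with SV1 over all 33 libraries, 5 with only the 2 groups, 1 in batch 1 alone and 0 in batch 2 alone. For PH 4 months against intact (11) it was 1 in batch 2 alone (1.08%). For PH 4 months against 14 days (2) it was 1 with no covariate, with batch for SV1 or with the replicate block, 4 and 0 in batches 1 and 2, and 5 without the 2 libraries that stand apart (2.22%). For POA 14 days (7) it was 4 with no covariate, 12 with SV1 and batch, 16 with the replicate block, 3 in batch 1 alone and 3 without the 2 libraries (3.19%). For POA 4 months (11) it was 21 with SV1 and batch, 5 in batch 2 alone (2.47%) and 7 without the 2 libraries (5%). For POA 4 months against 14 days (1) it was 0 with no covariate, 5 in batch 1 and 0 in batch 2. The region interactions at 14 days (1) and 4 months (0) gave 2 with the replicate block and 2 and 5 with pairs of libraries as block. Members that were higher with no overlap of groups numbered 1, 4, 2 and 1 with the SV1 term removed, in place of 0, 2, 0 and 2. The order is PH 14 days, PH 4 months, POA 14 days and POA 4 months. Shares of all genes beside the latter counts were 0.278%, 0.551%, 0.263% and 0.413%. With the SV1 term removed no such share was taken, so the change in count cannot be set against all genes. The cause of these changes with the setting was not tested.

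*Zc3hav1* at 4 months in the POA was called with batch in place of SV1 (limma adjusted *P* = 0.0418), and the count of called members was 0 in the other 10 of 11 such settings, with log2 fold changes of 0.41 to 0.48. Leaving out single libraries, the count ran from 0 to 1 and was lost in 15 of 17 cases, kept without intact replicate 3 (adjusted *P* = 0.0394) or 14-day replicate 6 (0.0378), with a highest limma adjusted *P* of 0.149. Between 4 months and 14 days in batch 2 of the PH, *Zc3hav1* and *Ifih1* turned to -0.056 and -0.033.

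Leaving out single libraries, the counts with unadjusted *P* under 0.05 ran from 1 (without 14-day replicate 4) to 7 (without 14-day replicate 2) for PH 14 days, from 7 (intact 2) to 15 (14-day 6) for PH 4 months, from 0 to 6 for PH 4 months against 14 days, from 3 (14-day 6) to 14 (intact 3) for POA 14 days, from 6 (intact 5) to 15 (4-month 4) for POA 4 months, from 0 to 2 for POA 4 months against 14 days, and from 1 to 2 and 0 to 1 for the interactions. These counts have no share of all genes beside them and are not read as results about the members. The median log2 fold change ran from 0.09 to 0.28, 0.21 to 0.37, -0.01 to 0.23, 0.17 to 0.33, 0.16 to 0.33 and -0.08 to 0.09 in the same order of the 6 comparisons.

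The replicate numbers were not taken as pairs. Between same-numbered PH groups 9 of 14 pairs correlated above 0.1, and 14 of 16 did in the POA, with 5 and 4 libraries matching their own number best. Between regions 14 of 16 did, with 10 best matches, including the 4-month libraries numbered 5 but not the 14-day libraries numbered 6. The replicate block gave *Zc3hav1* in the POA at 4 months a log2 fold change of 0.48 (limma adjusted *P* = 0.328). Depth cannot be read from normalised signal, so low members such as *Oasl1* and *Zbp1* have an unknown counting error.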
